A study of Homo sapiens with 12 samples.

Results

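The replication-dependent histone genes lie in clusters and encode the linker histones H1-1 to H1-6 and the core histones H2A, H2B, H3 and H4. They were picked by symbol alone, as H1-1 to H1-6 or as H2AC, H2BC, H3C or H4C followed by a number, which gave 65 genes of the 58037 identifiers counted. The 65 comprised 6 H1, 15 H2A, 18 H2B, 11 H3 and 15 H4 genes, with 53 on chromosome 6, 11 on chromosome 1 and 1 on chromosome 12. A further 4 symbols that meet the rule (H2AC18, H2AC19, H3C2 and H3C3) were not analysed here. RNA came from 2 human prostate cancer lines that carry a doxycycline (DOX)-inducible shRNA against MUC1, with 3 vehicle and 3 DOX samples of each.

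LNCaP-AI cells are an androgen-independent line obtained from C4-2B, a derivative of LNCaP, by prolonged growth without androgen, and DU-145 is a separate prostate cancer line that is labelled androgen insensitive. All 4 groups carried the tet-MUC1shRNA construct, introduced with a viral vector and selected with puromycin. Cultures received vehicle (DMSO) or DOX at 500 ng/ml, and the exposure lasted 7 days. The sample labels call the groups shCTL and shMUC1, while the series text and methods describe vehicle and DOX in the same cells. No sample combined DOX with a control shRNA among those analysed here, so the action of DOX itself and that of silencing MUC1-C cannot be told apart.

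Most histone mRNA is made in S phase, when new DNA must be wrapped into nucleosomes. Its 3′ end is normally a conserved stem-loop bound by SLBP, formed by cleavage with the U7 snRNP in place of a poly(A) tail, and the mRNA is degraded when replication stops. Some of these genes can also be read through the stem-loop to a polyadenylation signal further downstream, as is known for differentiated or arrested cells. The libraries here were mRNA libraries of the kind that select poly(A) RNA, so the levels below describe histone RNA captured in that way. They do not give total histone mRNA.

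Total counts ranged from 10423437 to 13544153 in DU-145 and from 16569613 to 26961777 in LNCaP-AI cells, and the 65 genes took between 0.0302% and 0.0884% of them. MUC1 itself had 74, 60 and 59 counts with vehicle and 3, 3 and 3 with DOX in DU-145 cells (adjusted p = 1.37e-09, edgeR's quasi-likelihood test, which gives all adjusted p values here unless another tool is named). In LNCaP-AI cells it had 36, 25 and 52 counts with vehicle and 8, 6 and 3 with DOX (adjusted p = 0.0139). Of the LNCaP markers, KLK2, KLK3, TMPRSS2, FOLH1, HOXB13 and STEAP2 were tested in LNCaP-AI cells, while in DU-145 cells KLK2, KLK3, FOLH1 and HOXB13 were at 0 in every sample and STEAP2 passed the filter. The LNCaP-AI samples divided across treatment on the first principal component (82.5% of the variance), where vehicle 1 lay with DOX 2 and DOX 3, and DOX 1 lay with vehicle 2 and vehicle 3. Values within these sides are therefore given beside the LNCaP-AI results.

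A gene was tested in a line when 3 of its 6 samples reached 10 counts. This left 17 of the 65 histone genes in DU-145 and 28 in LNCaP-AI cells, and the 17 were all among the 28. The remaining 37 were tested in neither line, of which 12 were at 0 counts in all 12 samples (a count of 0 allows up to 3 counts), 11 never exceeded 3 counts and 14 had more in some sample. The genes at 0 were H1-1, H2AC1, H2AC7, H2AC15, H2BC1, H3C4, H3C7, H3C14, H3C15, H4C6, H4C7 and H4C15. H2AC8 in DU-145 cells passed the filter only through its DOX samples.

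The stem-loop was located in the reference genome (GRCh38) within 150 bases after the stop codon of all 65 genes, and it is shown because the genes are grouped below by where their models end relative to it. All 16-base matches could form 6 of 6 base pairs, counting G with T as a pair. Capitals mark the 6 bases of each arm of the stem and lower case the loop. There were 10 forms, of which the commonest was found in 36 genes, the second in 10 H4 genes, the third in 9 genes and the fourth in 4 H4 genes.
H2BC21, H2AC6, H3C10 and H1-2: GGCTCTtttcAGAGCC
H4C5, H4C8 and H4C16: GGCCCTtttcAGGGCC
H2BC4, H2BC5, H2BC11 and H2BC12: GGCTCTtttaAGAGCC
H4C9: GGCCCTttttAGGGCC
In GENCODE release 44 the gene model ended over 100 bases beyond the stem-loop in 17 of the 65 genes, and at the stem-loop in the other 48. H2BC21, a 1-exon gene on chromosome 1 from 149884459 to 149886682, ran 1729 bases past its stem-loop. H3C10 (chromosome 6, 27810051 to 27811300) ran 769 bases past it. H2BC5 (chromosome 6, 26158122 to 26171349) had a 3-exon model that ended 12747 bases downstream. H2BC12 (27146361 to 27146855), H4C9 (27139282 to 27139678) and H4C5 (26204610 to 26205021), 1-exon genes on chromosome 6, ended 5, 9 and 5 bases after the stem-loop. An AATAAA polyadenylation signal lay 12 bases after the stem-loop in H1-2 and in H2BC5.

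Promoter sequence is shown for 5 genes: H2BC12, H2BC5 and H3C10, which were higher with DOX in both lines, and H2BC21 and H4C5, whose fold changes in LNCaP-AI cells were the largest of the family. Each is the 250 bases before the RefSeq gene start, 5′ to 3′ on the strand of the gene (GRCh38.p14). Capitals mark 4 motifs known from histone promoters, searched on both strands. These were the octamer ATTTGCAT, the box with the letters CCAAT, the TATA box as TATAAA, and the core of the H4 element bound by HINFP, searched as GGTCCG. Motifs may overlap, as CCAAT and GGTCCG do in H2BC21.
H2BC21, chr1:149886683-149886932, minus strand: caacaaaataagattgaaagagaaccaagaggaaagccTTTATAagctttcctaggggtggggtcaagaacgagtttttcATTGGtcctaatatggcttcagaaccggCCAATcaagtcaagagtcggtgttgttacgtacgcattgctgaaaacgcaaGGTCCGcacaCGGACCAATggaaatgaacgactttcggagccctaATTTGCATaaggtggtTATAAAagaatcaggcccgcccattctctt
H2BC12, chr6:27146859-27147108, minus strand: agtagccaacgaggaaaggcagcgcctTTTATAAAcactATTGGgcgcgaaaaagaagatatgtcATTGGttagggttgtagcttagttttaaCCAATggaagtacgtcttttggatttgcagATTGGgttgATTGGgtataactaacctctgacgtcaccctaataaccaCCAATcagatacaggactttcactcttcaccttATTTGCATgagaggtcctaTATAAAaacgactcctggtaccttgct
H2BC5, chr6:26157871-26158120, plus strand: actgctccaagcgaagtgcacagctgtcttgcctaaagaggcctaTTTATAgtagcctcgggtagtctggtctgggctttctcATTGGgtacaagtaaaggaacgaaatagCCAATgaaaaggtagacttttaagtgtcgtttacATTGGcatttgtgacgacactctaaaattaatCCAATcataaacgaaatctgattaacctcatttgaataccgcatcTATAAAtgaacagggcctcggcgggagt
H3C10, chr6:27809801-27810050, plus strand: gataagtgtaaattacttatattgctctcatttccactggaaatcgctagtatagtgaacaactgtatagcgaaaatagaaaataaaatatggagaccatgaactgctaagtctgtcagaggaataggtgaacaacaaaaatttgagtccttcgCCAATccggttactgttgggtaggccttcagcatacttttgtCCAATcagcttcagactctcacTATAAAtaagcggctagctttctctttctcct
H4C5, chr6:26204360-26204609, plus strand: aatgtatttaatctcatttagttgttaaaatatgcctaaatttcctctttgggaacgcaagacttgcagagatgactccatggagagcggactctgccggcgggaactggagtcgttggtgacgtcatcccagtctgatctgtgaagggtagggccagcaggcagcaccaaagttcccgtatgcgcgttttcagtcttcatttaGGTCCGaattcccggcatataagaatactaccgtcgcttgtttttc
The octamer stood at -46 from the start in both H2BC21 and H2BC12, and TATAAA at -30 and -27. Over the 60 histone genes with a promoter in the RefSeq table, 43.3% held the octamer, against 1.66% of all 27305 promoters, and the matches were in 11 of 14 H2A, 14 of 18 H2B and 1 of 9 H3 genes. GGTCCG was found in 12 of 13 H4 genes and in 9.33% of all promoters. It was also held by 1 of 18 H2B genes (H2BC21), 1 of 14 H2A genes (H2AC20, the neighbour of H2BC21) and 1 of 9 H3 genes (H3C7). CCAAT was found in 83.3% of the histone promoters and 33.0% of all, and TATAAA in 65% and 11.1%. H2BC5 lacked the ATTTGCAT letters in this window. With the octamer, 3 of 9 tested genes were called higher in DU-145 and 8 of 13 in LNCaP-AI cells. Without it these were 6 of 8 and 8 of 15, and of all genes tested 26.3% were called higher in DU-145 and 7.22% in LNCaP-AI cells. The 3 with the octamer in DU-145 cells include H2AC8, which passed the filter only through its DOX samples.

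The first comparison asked how silencing MUC1-C changed the histone genes in DU-145 cells. H2BC12, H2BC11, H4C9 and H2BC15 rose between 1.64-fold and 2.02-fold, and H2BC5, H3C10, H4C8 and H1-2 rose between 1.18-fold and 1.47-fold. In all, 9 of the 17 tested genes were called higher and 0 lower (at an unadjusted p under 0.05 also 0 lower, and 0 with DESeq2), beside 26.3% of all 13644 genes tested called higher and 25.3% called lower, or 51.5% in either direction. The 9 include H2AC8, which entered the test only through its higher group, and without it 8 of 16 genes were called higher. Over the 17 genes the log2 fold change had a median of 0.42, and over all genes one of 0.0006.

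H2BC12, 1 of the core H2B genes, was at 27.6, 29.5 and 23.6 CPM (counts scaled to the library total and TMM-normalized within the line) in the vehicle samples and at 52.8, 52.6 and 56.8 CPM with DOX. Every DOX sample stood above every vehicle sample. The log2 fold change was 1.01 (SE 0.0876, adjusted p = 1.82e-08). H4C9, an H4 gene, was at 41.9, 44.9 and 44.5 CPM with vehicle and 88.4, 74.6 and 74.9 CPM with DOX. It rose by 0.86 on the log2 scale (SE 0.0807, adjusted p = 5.69e-08), again with no overlap of the groups. H2BC11 was at 6.21, 5.63 and 4.79 CPM with vehicle and 11.9, 9.63 and 11.4 CPM with DOX, a log2 fold change of 0.98 (SE 0.15, adjusted p = 2.13e-05). H2BC15 moved from 5.29, 4.29 and 4.71 CPM to 7.16, 7.85 and 8.53 CPM (log2 fold change 0.71, SE 0.157, adjusted p = 0.000859). Both H2B genes had all 3 DOX samples above all 3 vehicle samples.

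H2BC5 was at 13.5, 15.9 and 12.9 CPM with vehicle and 19.5, 18.6 and 18.5 CPM with DOX (log2 fold change 0.42, SE 0.108, adjusted p = 0.00287). H3C10, the only H3 gene tested in this line, was at 5.75, 5.72 and 6.14 CPM with vehicle and 8.95, 8.15 and 8.78 CPM with DOX (log2 fold change 0.55, SE 0.142, adjusted p = 0.00316). The groups did not overlap for either gene. H1-2, a linker histone gene, was at 110.3, 130.9 and 110.5 CPM with vehicle and 146.9, 133.2 and 136.0 CPM with DOX. Its log2 fold change of 0.24 (SE 0.0767) passed at an adjusted p of 0.0122 and lost the call without vehicle 1, vehicle 3 or DOX 1 (adjusted p = 0.0903, 0.0784 and 0.0660, with log2 fold changes of 0.18, 0.19 and 0.20). H2AC8 was called on 7, 8 and 5 counts against 13, 13 and 25, and lost its call without vehicle 3. With any of the DOX samples left out it no longer passed the filter and was not tested.

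The other 8 genes tested in DU-145 cells were not called. H2AC6, an H2A gene with 47.7, 46.5 and 53.5 CPM with vehicle, stood at 48.7, 48.1 and 55.4 CPM with DOX (log2 fold change 0.04, SE 0.0824, adjusted p = 0.710). H2BC4 gave 0.04 (SE 0.128), H2AC11 0.14 (SE 0.125) and H2BC6 0.42 (SE 0.251) on the log2 scale. H2BC21 was at 29.4, 30.2 and 26.2 CPM with vehicle and 25.8, 24.5 and 26.2 CPM with DOX, and its log2 fold change of -0.17 (SE 0.0889) had an adjusted p of 0.127. It was the only tested gene of the family with a negative log2 fold change in this line, and without vehicle 3 it was the 1 gene called lower. All DOX values lay above all vehicle values for 8 of the 16 genes other than H2AC8, whose passing of the filter favoured that order, beside 29.6% of all genes with DOX above and 27.7% with DOX below.

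In LNCaP-AI cells, silencing MUC1-C was accompanied by higher levels of histone genes of every core family. H2BC21 and H4C5 rose 5.65-fold and 5.69-fold, and H4C8, H3C10, H2BC4 and H2BC5 between 2.83-fold and 3.47-fold. Of the 28 tested genes 16 were called higher and 0 lower (also 0 lower at an unadjusted p under 0.05 and with DESeq2), beside 7.22% of all 16030 genes tested called higher and 5.52% called lower, or 12.7% in either direction. Their log2 fold changes had a median of 0.92, and those of all genes one of -0.05. By family, 9 of 13 H2B, 4 of 4 H4, 2 of 3 H3 and 1 of 6 H2A genes were called higher, and the H1 genes tested, H1-2 and H1-4, were not called.

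H2BC21 had 46.9, 31.9 and 30.9 CPM in the vehicle samples and 174.2, 228.2 and 218.2 CPM in the DOX samples. Vehicle 1 was the highest of its group and DOX 1 the lowest of its own, with no overlap. The log2 fold change was 2.50 (SE 0.206, adjusted p = 0.0123), and within the sides of the first principal component it was 2.25 and 2.47. H4C5 went from 3.20, 1.42 and 2.25 CPM to 10.7, 14.0 and 14.5 CPM (log2 fold change 2.51, SE 0.326, adjusted p = 0.0136; 2.12 and 2.49 within the sides). In DU-145 cells H4C5 was all but undetected, with 0, 1 and 0 counts with vehicle and 0 in each DOX sample.

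H2BC5 had 15.2, 13.7 and 12.9 CPM with vehicle and 37.1, 42.5 and 38.6 CPM with DOX. Its log2 fold change of 1.5 (SE 0.11) had the smallest adjusted p of the family, 0.0109, and was 1.41 and 1.47 within the sides. H2BC4 had 10.5, 8.36 and 7.88 CPM with vehicle and 22.5, 26.4 and 27.9 CPM with DOX (log2 fold change 1.52, SE 0.163, adjusted p = 0.0123). H3C10 had 22.2, 18.1 and 15.9 CPM with vehicle and 48.6, 57.9 and 57.9 CPM with DOX (log2 fold change 1.55, SE 0.153, adjusted p = 0.0123). H4C8 had 16.4, 11.4 and 10.3 CPM with vehicle and 36.5, 48.1 and 47.7 CPM with DOX (log2 fold change 1.80, SE 0.218, adjusted p = 0.0124). In none of these 4 genes did the groups overlap.

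H4C9 had 38.8, 32.2 and 30.6 CPM with vehicle and 57.5, 62.9 and 67.6 CPM with DOX, a log2 fold change of 0.89 (SE 0.123, adjusted p = 0.0147). H2AC6 had 51.3, 42.6 and 37.5 CPM with vehicle and 66.1, 75.4 and 82.2 CPM with DOX (log2 fold change 0.77, SE 0.148, adjusted p = 0.0265). It was the only H2A gene called. H2BC12 and H2BC11 rose by 1.06 (SE 0.151) and 0.90 (SE 0.133). The other called genes were H2BC18, H3C6, H2BC7, H4C16, H2BC13 and H2BC6, with log2 fold changes between 1.19 and 1.67.

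H1-2 stood at 117.2, 68.9 and 70.9 CPM with vehicle and at 140.0, 180.8 and 174.5 CPM with DOX. The lowest DOX value exceeded the highest vehicle value, which was that of vehicle 1, and the log2 fold change of 0.95 (SE 0.236) had an adjusted p of 0.0512. H2BC15 (0.72, SE 0.209), H2AC11 (0.58, SE 0.162), H2AC13 (0.89, SE 0.301) and H2AC8 (0.86, SE 0.406) likewise had non-overlapping groups without a call. H1-4 was at 39, 10 and 15 counts with vehicle and 14, 10 and 6 with DOX, and the log2 fold changes of H2BC26, H2BC17, H2AC25, H2AC20 and H2BC8 lay between -0.32 and 0.25. For 21 of the 28 genes all DOX values were above all vehicle values and for 0 below, beside 19.8% of all genes with DOX above and 17.6% with DOX below.

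Within the sides of the first principal component, the log2 fold changes of the 16 called genes were read without a test. They ran from 0.62 to 2.25 (median 1.39) on the side of vehicle 1 and from 0.72 to 2.49 (median 1.23) on that of vehicle 2. All 16 had every DOX value above every vehicle value, so values above 0 within the sides were given in advance and add no support. The calls needed DOX 2 and DOX 3, since without either library 0 histone genes passed (19 of 28 were higher at an unadjusted p under 0.05 in each case). The adjusted p of the 16 then ran from 0.0854 to 0.135 without DOX 2 and from 0.0829 to 0.167 without DOX 3, while the log2 fold changes stayed between 0.70 and 2.46. With all genes considered, 1 gene was called without DOX 2 and 1 without DOX 3. Without vehicle 2 and without vehicle 3, 13 and 12 histone genes were called, and H2AC6, H2BC13 and H2BC6 lost their calls in both cases and H2BC7 in the second.

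**Figure D1:**
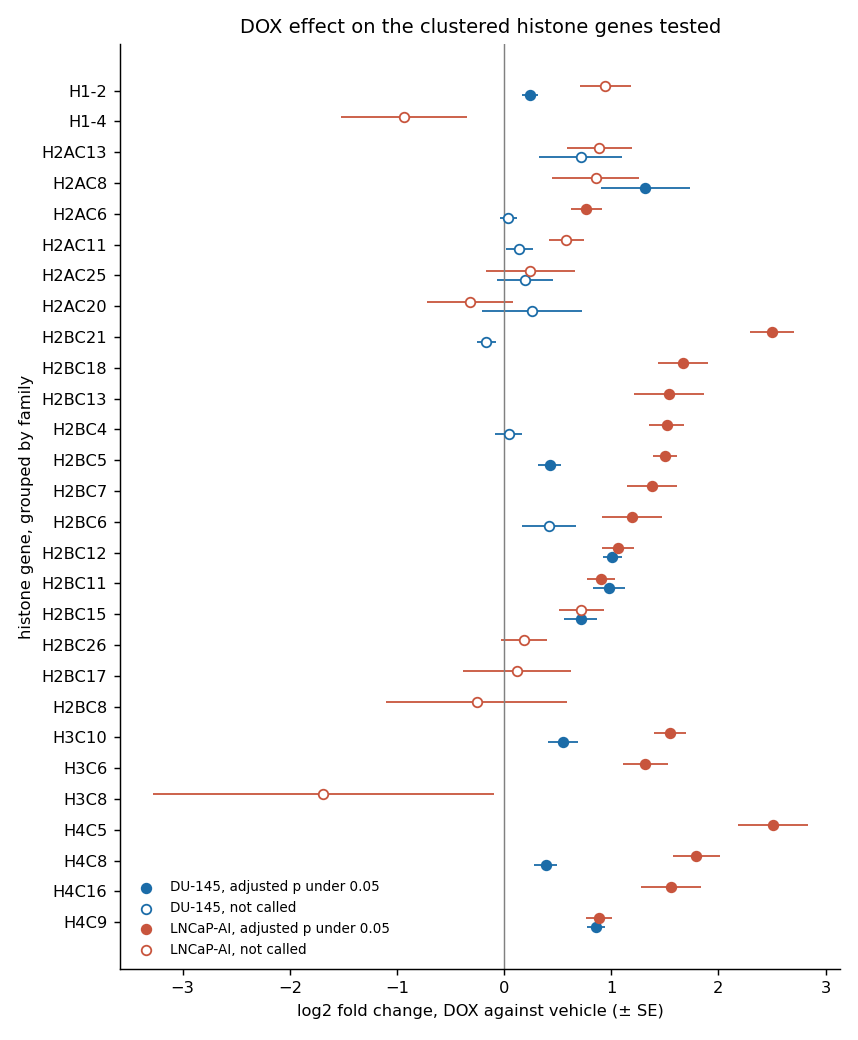
Log2 fold change of DOX against vehicle (x axis, ± SE) for the 28 histone genes tested in LNCaP-AI cells (red) and the 17 of them tested in DU-145 cells (blue), grouped by family on the y axis; filled points had an adjusted p under 0.05. In DU-145 cells 9 genes and in LNCaP-AI cells 16 genes are filled, all to the right of 0, and H2BC21 lies at -0.17 in DU-145 and at 2.50 in LNCaP-AI cells.

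A few low genes differed between the sides of the first principal component more than between vehicle and DOX. H3C8 had 0 counts in vehicle 1, DOX 2 and DOX 3, and 17, 40 and 16 counts in vehicle 2, vehicle 3 and DOX 1. H2BC9, an untested gene, had 0 counts in the first 3 and 12, 14 and 7 in the others, and H2BC8 had 2, 8 and 6 against 24, 21 and 23. These genes lie on chromosome 6 between 26216200 and 26271413. H3C6 lies in the same stretch and did not divide by side, with 4.66, 6.14 and 4.93 CPM with vehicle and 10.65, 12.4 and 16.1 CPM with DOX. H2AC25 on chromosome 1, a higher gene with up to 619 counts, had 7.82, 17.0 and 16.1 CPM in vehicle 1, DOX 2 and DOX 3. In vehicle 2, vehicle 3 and DOX 1 it had 21.3, 21.2 and 26.5 CPM, so vehicle 1 stood furthest apart.

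**Figure D2:**
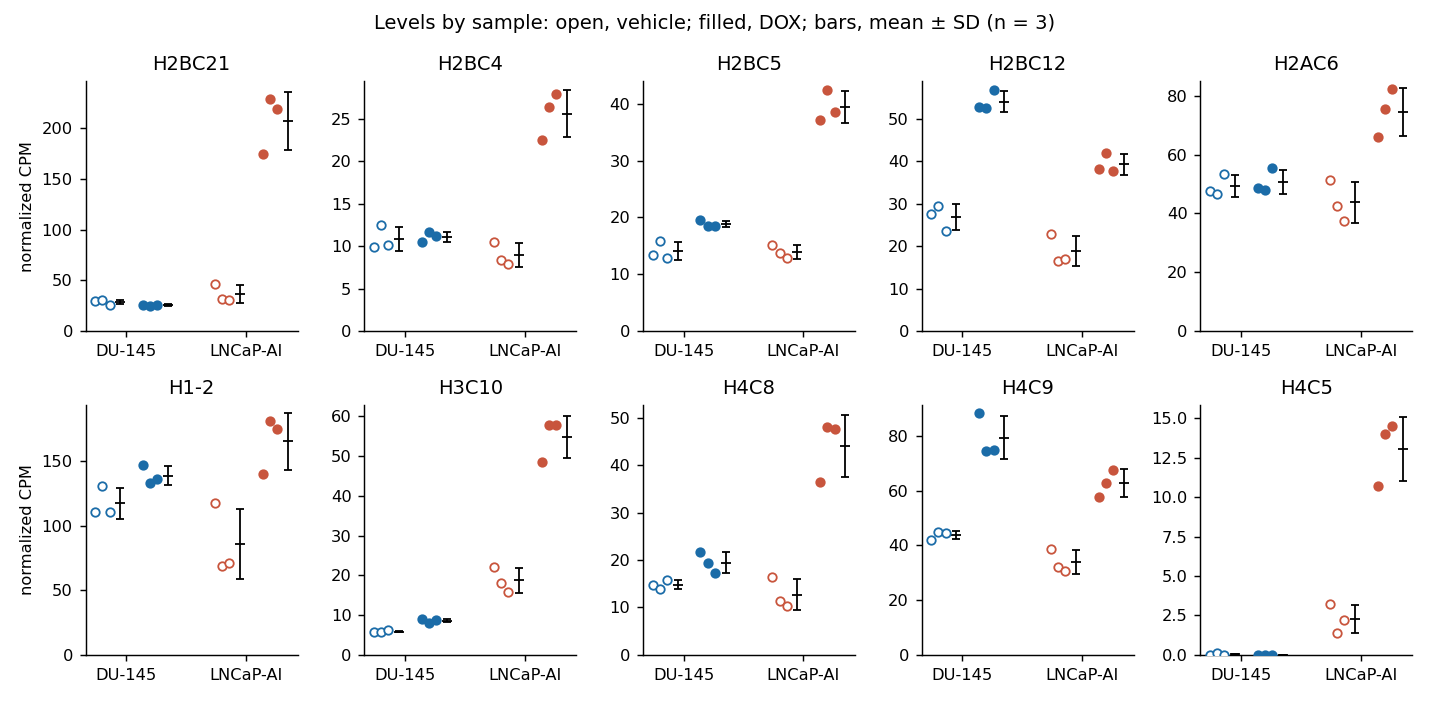
Normalized CPM (y axis, from 0) in each sample of DU-145 (blue) and LNCaP-AI cells (red) for 10 histone genes, with open circles for vehicle, filled circles for DOX and bars for the mean ± SD of 3 samples. CPM were normalized within each line, so levels are to be compared within a line: H2BC21 moves from 36.6 to 206.9 CPM in LNCaP-AI cells and from 28.6 to 25.5 CPM in DU-145 cells, while H2BC12 and H4C9 rise in both.

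The summed level of the 65 genes gives the size of the change relative to all RNA counted. In DU-145 cells it was 333.5, 361.7 and 333.8 CPM with vehicle and 466.2, 432.9 and 449.8 CPM with DOX. In LNCaP-AI cells it was 398.9, 312.1 and 299.3 CPM with vehicle and 727.1, 879.5 and 867.1 CPM with DOX. The groups were apart in both lines. H2B genes made up 30.3% to 30.7% of the sum in LNCaP-AI cells with vehicle and 42.6% to 44.3% with DOX. In DU-145 cells that share was 26.1% to 28.8% with vehicle and 28.2% to 30.6% with DOX, so the groups overlapped. Without H2BC21 the H2B share was 20.97% to 22.7% with vehicle and 23.4% to 24.8% with DOX in LNCaP-AI cells, so most of the shift lay in that gene. In DU-145 cells it was 19.8% to 21.9% and 24.0% to 26.3% without H2BC21, where the groups no longer overlapped. H4 genes went from 57.9, 61.4 and 62.1 CPM to 111.6, 95.8 and 93.5 CPM in DU-145, and from 60.6, 46.9 and 45.3 CPM to 108.7, 129.5 and 133.2 CPM in LNCaP-AI cells.

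**Figure D3:**
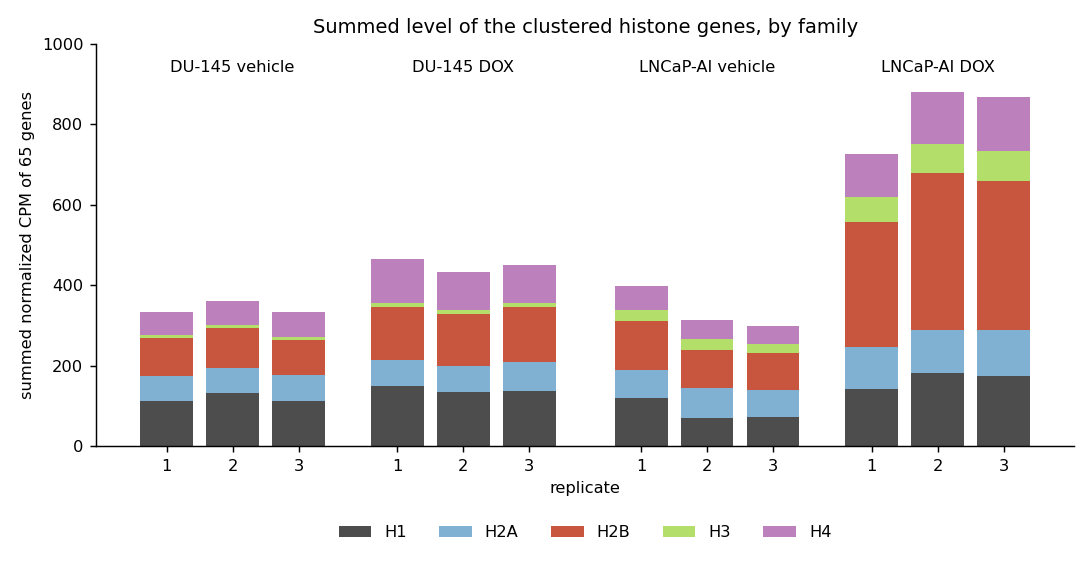
Summed normalized CPM of the 65 histone genes (y axis, from 0) in each of the 12 samples, stacked by family; numbers on the x axis are replicates. The DOX bars are above the vehicle bars in both lines, and the H2B part reaches 310.8 to 389.8 CPM in LNCaP-AI cells with DOX, from 91.7 to 120.7 CPM with vehicle.

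The next comparison asked whether the effect of DOX differed between the lines, by the interaction of line and treatment over all 12 samples. Of 29 histone genes tested, 8 had a larger effect in LNCaP-AI cells and 0 a larger effect in DU-145 cells (0 also at an unadjusted p under 0.05 and with DESeq2), beside 5.43% and 3.76% of all 16800 genes tested, 9.18% in both directions together. H2BC21 differed most, with a log2 fold change larger by 2.7 in LNCaP-AI cells (SE 0.217, adjusted p = 0.000185). H2BC4 differed by 1.52 (SE 0.199, adjusted p = 0.00181), H4C8 by 1.44 (SE 0.243, adjusted p = 0.00605), H2BC5 by 1.12 (SE 0.143, adjusted p = 0.00166) and H3C10 by 1.03 (SE 0.173, adjusted p = 0.00590). H2AC6 differed by 0.76 (SE 0.168, adjusted p = 0.0202).

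H2BC18 (2.43, SE 0.507) and H4C16 (2.13, SE 0.469) were called as well, although they had at most 13 and 7 counts in any DU-145 sample. H2BC18 had 10, 4 and 13 counts with vehicle and 7, 4 and 5 with DOX in DU-145, and 27, 26 and 29 with vehicle and 76, 76 and 76 with DOX in LNCaP-AI cells. Some genes gave differences near 0. They were 0.09 (SE 0.174) for H2BC12, 0.07 (SE 0.144) for H4C9, -0.05 (SE 0.199) for H2BC11 and 0.04 (SE 0.252) for H2BC15, of which the first 3 were called higher in both lines. H4C5 and H3C6 were not called (adjusted p = 0.200 and 0.262), on at most 1 and 3 counts in DU-145 cells.

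The 8 genes that differed between the lines all had gene models that ended beyond the stem-loop. Among 14 tested genes with such models 8 were called, with a median difference of 1.07. Among 15 tested genes that ended at the stem-loop 0 were called (8 above 0, 7 below, median 0.07). Of all genes 5.43% were called larger in LNCaP-AI cells. Of the 15, H4C5 (4.83, SE 1.97), H2BC13 (1.98, SE 0.56) and H2BC7 (1.96, SE 1.16) had at most 1, 5 and 5 counts in any DU-145 sample. H2BC8 (-2.09), H3C8 (-2.12) and H1-4 (-1.43) had at most 11, 10 and 13. Of the 8 called genes, H2BC18 and H4C16 had at most 13 and 7. At an unadjusted p under 0.05, 3 of the 15 were higher in LNCaP-AI cells (H2BC13, H1-2 and H2AC11), and DESeq2 called H1-2. These 3 were called without DOX 1 of LNCaP-AI cells, H1-2 and H2BC13 without vehicle 1, and H2BC13 under a 1 CPM filter. The contrast between the 2 kinds of gene model thus depended on those libraries and on the filter. The part of low DU-145 counts in it was not tested. Within LNCaP-AI cells 11 of 14 genes of the first kind and 5 of 14 of the second were called higher (medians 1.41 and 0.87), beside 7.22% of all genes. In DU-145 cells these counts were 5 of 10 and 4 of 7 (medians 0.40 and 0.71), beside 26.3% of all genes. The second kind there includes H2AC8, which passed the filter only through its DOX samples. The first kind have more annotated sequence on which a read can be counted, and the counts do not say where along a gene the reads lay.

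**Figure D4:**
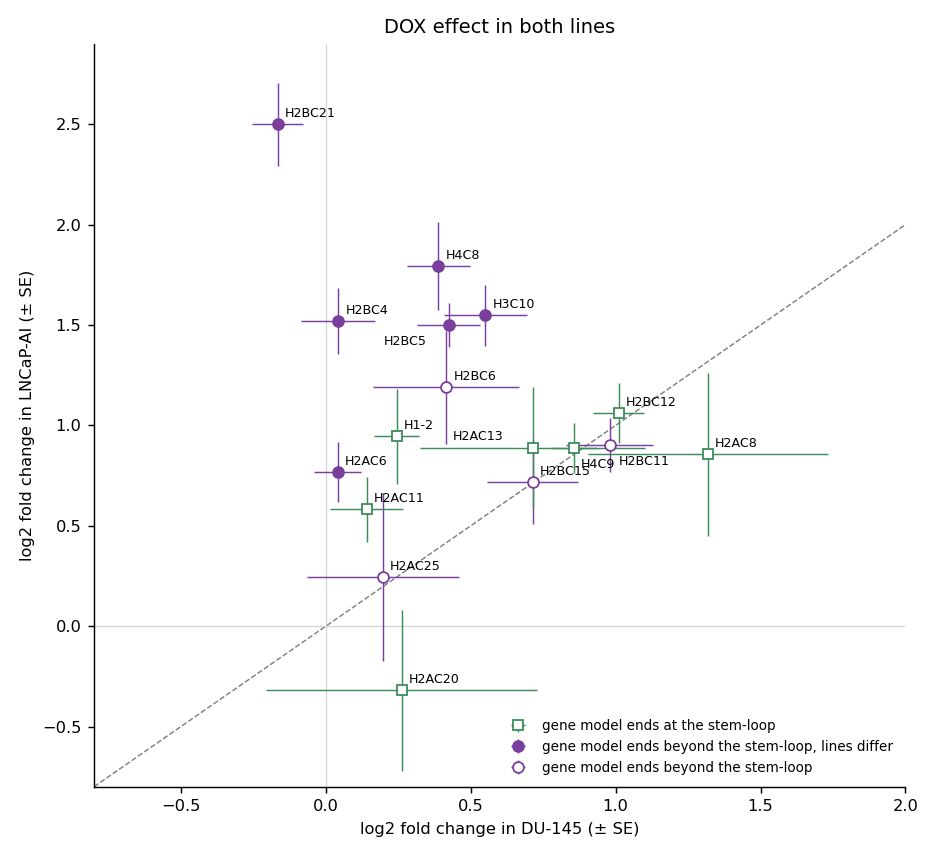
Log2 fold change of DOX against vehicle in DU-145 (x axis) and in LNCaP-AI cells (y axis), both ± SE, for the 17 histone genes tested in both lines, with the dashed line at equal change. Circles are genes whose model ends beyond the stem-loop and squares those that end at it, and filled symbols differed between the lines by the interaction test. H2BC21, H2BC4, H4C8, H2BC5, H3C10 and H2AC6 are the filled circles above the line, and H2BC12, H4C9, H2BC11 and H2BC15 lie close to it.

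A list of 6 of these genes known to be made also as polyadenylated mRNA (H1-2, H2AC6, H2BC4, H2BC5, H2BC12 and H2BC21) was followed separately. In LNCaP-AI cells 5 of the 6 were called higher and 0 lower (median log2 fold change 1.28), and in DU-145 cells 3 of the 6 (median 0.14), beside 7.22% and 26.3% of all genes called higher. The other tested genes gave 11 of 22 (median 0.89) and 6 of 11 (median 0.55). The 6 in DU-145 cells include H2AC8, which passed the filter only through its DOX samples. RNAs that lack a poly(A) tail were then inspected for tail-less RNA in the libraries. Of 24 such RNAs RN7SL2 was tested in DU-145 (log2 fold change 0.94, SE 0.539), and RN7SL2 (0.60, SE 0.918) and SNORA73B (-1.14, SE 0.481) in LNCaP-AI cells, without a call. The sum over the 24 was 7.89, 18.5 and 3.83 CPM with vehicle and 3.58, 17.9 and 25.2 CPM with DOX in DU-145 cells, and 2.91, 22.1 and 25.7 CPM against 35.4, 25.6 and 12.1 CPM in LNCaP-AI cells. The groups overlapped in both lines. RN7SL2 alone held 16.3 CPM of the sum in DU-145 vehicle 2, 23.5 in DU-145 DOX 3 and 34.2 in LNCaP-AI DOX 1, but 1.44 in DU-145 vehicle 3. RN7SK, RMRP, RPPH1 and RNU7-1 were among those at 0 counts in all 12 samples. The sum thus rested largely on RN7SL2, which varied widely within groups, and could not show whether tail-less RNA changed with DOX.

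H2A and H2B genes often stand head to head and share the DNA between their starts, and 12 such pairs, with 169 to 250 bases between the genes, were found among the 65. In LNCaP-AI cells the H2B gene was called higher in 6 pairs and the H2A gene in 1, beside 7.22% of all genes called higher. The called H2BC7 and H2BC12 stood across from H2A genes that were not tested. Both genes were tested in 6 pairs, and the H2B gene had the larger log2 fold change in 4 of them. Across the 235 bases between H2BC21 and H2AC20, H2BC21 rose by 2.50 while H2AC20 stood at 0.785 ± 0.338 CPM with vehicle and 0.620 ± 0.0967 CPM with DOX (SD, n = 3; log2 fold change -0.32, SE 0.403). In the H2BC4 and H2AC6 pair, 218 bases apart, both were called, at 1.52 and 0.77. In DU-145 cells the H2B gene was called higher in 3 pairs and the H2A gene in 1, beside 26.3% of all genes. That H2A gene was H2AC8, which passed the filter only through its DOX samples. Both genes were tested in 3 pairs, and the H2B gene had the larger log2 fold change in 2. The H2BC11 and H2AC11 pair gave 0.98, which was called, and 0.14, which was not. H2BC21 and H2AC20 gave -0.17 and 0.26 there, neither called.

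With vehicle alone, DU-145 and LNCaP-AI cells differed in 14 of the 29 genes tested. Taking DU-145 against LNCaP-AI, 7 were higher and 7 lower, beside 28.7% and 37.6% of all 16800 genes (66.3% in total), and the median over all genes was -0.14. H3C10 was at 6.23 ± 0.210 CPM in DU-145 and 17.5 ± 2.76 CPM in LNCaP-AI cells (SD, n = 3, normalized over all 12 samples), a log2 difference of -1.49 (SE 0.125, adjusted p = 1.90e-06). H2AC25, H2BC7, H2BC13 and H2BC26 were lower as well, and H3C6 and H4C5 were lower with 0, 0 and 3 and with 0, 1 and 0 counts in DU-145. H2BC7, H2BC13 and H2BC26 had at most 5, 5 and 8 counts in any DU-145 sample. These 3, with H3C6 and H4C5, passed the filter only through LNCaP-AI samples, which favoured a call in that direction. H2BC12 (0.70, SE 0.125), H1-2 (0.64, SE 0.182), H4C9 (0.56, SE 0.103) and H2AC11 (0.55, SE 0.130) were higher, with H2BC6, H2BC4 and H2AC6, which lost their calls without vehicle 3 of LNCaP-AI cells, leaving 4 higher. Line and any batch of the libraries cannot be told apart.

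Other genes of histone supply were set beside the family, and their counts are to be read against all genes tested, of which 26.3% were called higher and 25.3% lower in DU-145, and 7.22% and 5.52% in LNCaP-AI cells. Replacement histones and other variants came first, many of which are made also outside S phase and can be incorporated independently of replication. They gave 1 higher and 6 lower of 11 tested in DU-145, and 1 higher and 4 lower of 11 in LNCaP-AI cells. H2AJ, an H2A variant gene with a polyadenylated mRNA, was the gene that rose in both lines, by 0.30 (SE 0.0903, adjusted p = 0.00870) and 0.91 (SE 0.131, adjusted p = 0.0158). CENPA, the centromeric H3 variant, decreased by 0.77 in DU-145 and by 1.41 in LNCaP-AI cells on the log2 scale. H2AZ1, encoding H2A.Z, fell by 0.88 in LNCaP-AI and H1-10 fell by 0.61 in DU-145 cells.

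Factors of histone mRNA synthesis gave 4 higher and 5 lower of 17 tested in DU-145, near the shares over all genes, and 1 higher and 3 lower in LNCaP-AI cells. NPAT, the coactivator that gathers at the histone clusters, fell by 0.45 (SE 0.0763, adjusted p = 7.22e-05) and 0.61 (SE 0.0969, adjusted p = 0.0180) in the lines in that order. SLBP, the stem-loop binding protein, fell by 0.27 (SE 0.0672) and 0.47 (SE 0.0797), and LSM10, a protein of the U7 snRNP, rose by 0.52 (SE 0.0941) and 0.55 (SE 0.0775). ZNF473, another U7 snRNP partner, was 0.70 higher in DU-145 and fell by 0.63 in LNCaP-AI cells. NCBP2, of the cap-binding complex, fell by 0.81 in DU-145 cells. Of 10 genes of histone mRNA decay 2 rose and 3 fell in DU-145, and the only call in LNCaP-AI cells was ERI1, the 3′ exonuclease of the stem-loop (fell by 0.55, SE 0.106, adjusted p = 0.0262). In DU-145 cells ERI1 and PNRC2 fell by 0.31 and 0.39, and TUT7, a terminal uridylyltransferase, rose by 0.30.

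Histone chaperones gave 3 higher and 9 lower of 22 tested in DU-145, and 10 lower of 21 in LNCaP-AI cells, where the highest log2 fold change of the list was 0.0033. CHAF1B, a subunit of the CAF-1 complex that deposits H3 and H4 behind the replication fork, fell by 0.84 (SE 0.101, adjusted p = 0.0123) in LNCaP-AI cells and by 0.26 in DU-145. HJURP, the chaperone of CENPA, fell by 1.14 and 0.71, and MMS22L by 1.27 and 0.84. Of 14 S phase genes 2 rose and 4 fell in DU-145, shares close to or below those over all genes, and 2 rose and 9 fell in LNCaP-AI cells. CDKN1A, encoding the CDK inhibitor p21, rose by 2.07 (SE 0.0742, adjusted p = 1.45e-13) in DU-145 and by 3.51 (SE 0.133, adjusted p = 0.00233) in LNCaP-AI cells. MCM2 and CDC6, which license replication origins, fell by 0.80 and 0.74 in LNCaP-AI cells, and CCNA2 fell by 1.04 in DU-145. 

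**Figure D5:**
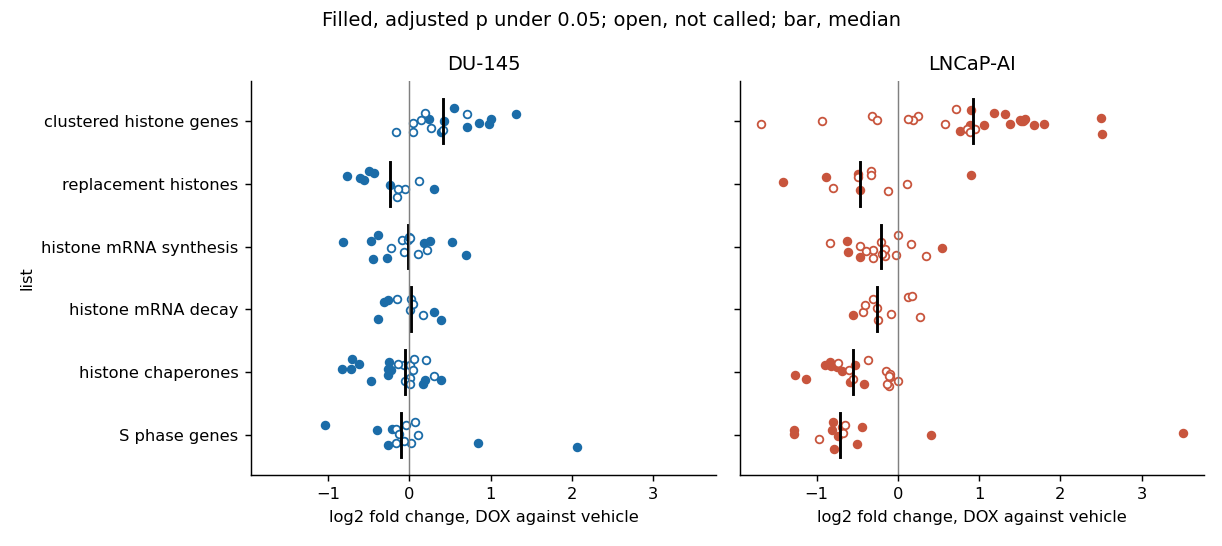
Log2 fold change of DOX against vehicle (x axis) for each tested gene of the histone family and of 5 related lists (y axis), in DU-145 (left) and LNCaP-AI cells (right); filled points had an adjusted p under 0.05 and the bar is the median. The histone family has its median at 0.42 and 0.92, and in LNCaP-AI cells the chaperones and the S phase genes have theirs at -0.55 and -0.71.

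Markers of cell identity moved in these samples too, and their part in the results was not tested. In bulk RNA, a change in the share of cells of a kind and a change in RNA per cell cannot be told apart. In LNCaP-AI cells the LNCaP markers KLK2, TMPRSS2 and KLK3 rose by 2.13 (SE 0.156), 1.89 (SE 0.219) and 1.40 (SE 0.164) on the log2 scale, and FOLH1 (0.65, SE 0.204), STEAP2 (0.51, SE 0.246) and HOXB13 (0.22, SE 0.241) were not called. In DU-145 cells 4 of 4 epithelial markers rose, from a sum of 825.6 to 880.5 CPM to 1903 to 2022 CPM, and in LNCaP-AI cells the 4 lay between -0.32 and 0.44 on the log2 scale without a call. Of 4 leukocyte markers CD79A rose in DU-145 cells, with 2, 1 and 1 counts with vehicle and 21, 26 and 25 with DOX, while PTPRC and CD3E were at 0 in every DU-145 sample. COL1A1 was the only fibroblast marker of 5 tested in DU-145 cells (log2 fold change 0.49, SE 0.245, not called). In LNCaP-AI cells CD14 (-0.71, SE 1.15), DCN (-0.80, SE 1.25) and COL1A1 (0.04, SE 0.148) were tested without a call.

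Histone genes of a family are nearly identical in their coding sequence, and how reads shared between copies were counted is not given in the sources used here, so that counts may be split among copies, above all within H2B and H4. H2BC18, H2BC4, H2BC6, H2AC21 and H4C8 had an exon overlapping another gene on the opposite strand, among them FCGR1A for H2BC18 and HFE for H2BC4, and reads of the partners cannot be told apart unless strand was used in counting, which is likewise not given. A further 6 genes shared an exon with another gene on the same strand, which strand would not resolve, namely H2AC6, H2BC26, H3C4, H2AC7, H3C12 and H2AC17, of which H2AC6 was called.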

How the data were processed

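RNA sequencing was analysed for 12 samples, 3 in each of the groups DU-145 vehicle, DU-145 DOX, LNCaP-AI vehicle and LNCaP-AI DOX. The deposited values were raw counts per gene, which the authors made from stranded mRNA libraries. The submitters' processing notes name STAR 2.7.0, DESeq2 1.24.0, CASAVA 1.8.2 and the build GRCh38.p7, and the counting tool is not given in the sources used here. The labels describe triplicate cultures without saying whether they were independent experiments, so p values measure the spread between these samples.

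Ensembl identifiers were matched to symbols (56948 of 58037), and 45 PAR_Y identifiers with 0 counts were left out. Counts were compared within each line by edgeR 4.0.16 in R 4.3.3 (TMM, glmQLFit, glmQLFTest, Benjamini-Hochberg) on genes reaching 10 counts in 3 samples. A gene was called at an adjusted p under 0.05. Interaction and vehicle contrasts used all 12 samples. The standard error was the size of the log2 fold change divided by the square root of F. Within-side fold changes used a pseudocount of 0.1 CPM and no test. The script was tested on simulated data. The floor of 3 counts is a matter of counting error alone. Replicate libraries were compared by chi-square, and all pairs differed by more than sampling noise (at least 2.26 per degree of freedom).

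The members, lists and naming rule were chosen with earlier results of these data known, and the gene model classes and motifs likewise. Values by sample are given for the 6 called members with the smallest adjusted p per line and the 4 with the highest mean CPM, the 5 leading members of the interaction, and up to 3 genes per list, with other members named after their values were seen. Lists were written from memory, 1 LNCaP marker is not reported here, and H2AW and H2BU1 of the replacement list are older symbols of H2AC25 and H2BC26 and were counted as members. Alternatives were DESeq2 1.42.0 and its size factors, normalization to the upper quartile, omission of the filter, a 1 CPM filter, a joint fit of 12 samples, a replicate block, leaving out each sample, and a covariate for the side on the first principal component, which was read from the same counts. The count without H2AC8 and the H2B share without H2BC21 were added after seeing the data. Same-numbered samples did not deviate together (mean r 0.0374 in DU-145 and -0.864 in LNCaP-AI), so no pairing was assumed. Gene positions were those of GENCODE 44 (GRCh38), promoters were those of RefSeq, and the authors' annotation may have differed.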

Additional observations from a re-analysis of the deposited data

Results flagged for a closer look

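The effect of DOX differed between LNCaP-AI and DU-145 cells for 8 histone genes, by edgeR's interaction test of line and treatment over all 12 samples. The log2 fold change in LNCaP-AI cells exceeded that in DU-145 cells by 2.7 for H2BC21, 2.43 for H2BC18, 2.13 for H4C16, 1.52 for H2BC4, 1.44 for H4C8, 1.12 for H2BC5, 1.03 for H3C10 and 0.76 for H2AC6. H2BC18 and H4C16 rest on at most 13 and 7 counts in any DU-145 sample. H2AC6 lost its call without DOX 1, DOX 2 or vehicle 3 of DU-145 cells and without DOX 2 or DOX 3 of LNCaP-AI cells, and H4C16 without DOX 1 of DU-145 or DOX 2 of LNCaP-AI cells.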

How the results depend on the processing

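The 9 genes called higher in DU-145 cells remained called under DESeq2, both other normalizations, no filter and the replicate block, and 6 of them remained in the fit of all 12 samples, which lost H1-2, H2AC8 and H4C8. Leaving out each sample gave 7 to 9 higher and 0 to 1 lower. The 16 genes called higher in LNCaP-AI cells remained called with DESeq2, both other normalizations, a 1 CPM filter and the side covariate, and 15 remained without a filter and in the joint fit. The side covariate gave 22 higher and 1 lower (H1-4). Over all 16030 genes tested it gave 3013 higher and 3258 lower, against 1158 and 885 without it, so calls rose in general. The replicate block left 0 higher in LNCaP-AI cells (0 in both directions over all genes, 17 histone genes higher at an unadjusted p under 0.05), 1 higher for the interaction (H2BC21) and 4 higher with vehicle between the lines, where no filter also gave 4. It changed no other count of calls by over 1.5 times. Leaving out each sample gave 0 to 19 higher and 0 to 0 lower in LNCaP-AI, 6 to 11 higher and 0 to 0 lower for the interaction, and 4 to 8 higher and 7 to 9 lower between the lines. The cause of these shifts was not tested. The log2 fold change of H2AC6 in DU-145 cells, 0.04, became -0.0025, -0.0022 and -0.0246 without vehicle 1, vehicle 2 and DOX 3, and ran up to 0.0877 without vehicle 3. H1-2 in LNCaP-AI cells passed the threshold with DESeq2 (adjusted p = 0.000506), under both other normalizations and under either filter setting. In DU-145 cells 48 of the 65 genes were not tested, and low depth and low expression were not separated for them. Among them H3C6, H4C5, H2BC7, H2BC13 and H2BC26 were called lower than in LNCaP-AI cells after normalization. They passed the filter of that test only through LNCaP-AI samples, which favoured such a call, so it does not separate depth from expression.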

Other observations

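Below the filter, H4C2 had 1, 4 and 1 counts with vehicle and 9, 7 and 11 with DOX in LNCaP-AI cells, without overlap and without a test. H4C3 had 17, 3 and 14 counts with vehicle and 1, 1 and 3 with DOX, so that its groups overlapped.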
